A study of Mus musculus with 4 samples.

Results

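The collagen chains are the genes whose symbol is Col, a number, the letter a and a number, the naming pattern of genes for collagen alpha chains. The rule found 44 such genes among the 47729 genes measured, and 30 of them reached the mean of 1 RPM (reads scaled to 1000000 per library) needed for a test. They were measured by RNA-seq in subcutaneous tumors of Lewis lung carcinoma (LLC) cells, a mouse lung cancer line of the C57BL/6 strain, grafted into the back of C57BL/6 mice and removed after 5 days. LLC-Chem tumors grew from LLC cells transfected with a pEFIN plasmid coding for chemerin (1-157), a form that needs no further clipping. Chemerin is a secreted chemoattractant protein. LLC-WT tumors grew from cells labelled wild type. Each group holds 2 pools of 3 tumors. The hosts carry no modification and were young adults, and all tumors shared the site of the graft and its age. The transfected cells were collected as individual clones after G418 selection, so that a difference between clones and an effect of chemerin cannot be told apart here. The labels call the control cells wild type, while the results text of the study also describes an empty vector.

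Collagens are proteins of 3 alpha chains wound into a triple helix, which requires a glycine in each repeat of 3 residues (Gly-X-Y). Fibrillar collagens form the long cross-striated fibrils of connective tissue, and type IV collagen forms the sheet-like network of basement membranes, including those around blood vessels. FACIT collagens (fibril-associated collagens with interrupted triple helices) sit on the surface of fibrils. The remaining chains form beaded filaments, anchoring fibrils, short-chain networks, transmembrane collagens and the multiplexins, which carry large sugar chains at basement membranes. In tumors most fibrillar collagen is made by fibroblasts of the stroma, although tumor cells and cells of the vessel wall also make collagens.

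The libraries held between 28470000 and 33990000 reads by a fit to the spacing of the deposited values, so that 3 reads correspond to 0.0883 to 0.105 RPM, and these limits cover counting error only. Rarres2, which encodes chemerin, measured 102.2 and 98.2 RPM in LLC-WT and 105.9 and 105.8 RPM in LLC-Chem. It did not pass the test (log2 change, that is, the fold change of RPM + 0.5 on the log2 scale, 0.08 ± 0.09 standard error (SE), adjusted p = 0.541 by limma), and Rarres2 RNA therefore gave no check of the labels of the pools. Pools of a group differed by more than the sampling noise, with a median absolute log2 difference over all tested genes of 0.19 between the LLC-WT pools and 0.13 between the LLC-Chem pools. The 44 chains together took 2.95% and 5.21% of the LLC-WT libraries and 4.07% and 3.82% of the LLC-Chem libraries. LLC-WT pool 2 measured higher than LLC-WT pool 1 for 18 of the 30 tested chains and for 41.7% of all tested genes. These are bulk samples, in which fewer cells of a type and less RNA per cell cannot be told apart.

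The collagen chains moved in both directions between the groups. The chains of type I collagen (Col1a1 and Col1a2), Col5a2, Col27a1, Col12a1 and Col15a1 were lower in LLC-Chem tumors, to between 0.235 and 0.377 of their LLC-WT level. The chains of type VI collagen (Col6a1, Col6a2 and Col6a3), Col16a1, Col8a1, Col28a1 and Col4a2 were higher, by 1.37-fold to 2.67-fold. In all, 6 of the 30 tested chains fell, 7 rose and 17 did not pass the test, which is a two-sided limma fit to log2(RPM + 0.5) of the 13694 genes that average 1 RPM or more. P-values were adjusted over all of these by the Benjamini-Hochberg method, and a gene was called at an adjusted p under 0.05. Over all those genes, 13.5% were called lower and 9.54% higher. The median log2 fold change was -0.03 over the tested chains and -0.04 over all tested genes. Both LLC-Chem pools lay below both LLC-WT pools for 12 of the 30 chains, against 39.3% of all tested genes, and above both for 9, against 33.1% of all tested genes. These calls need all 4 pools. With any one pool left out, limma called 0 of all genes tested, and between 4 and 12 chains were lower and between 6 and 9 higher at an unadjusted p under 0.05, beside 1580 to 2823 lower and 998 to 2359 higher of all 13694 genes.

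**Figure D1:**
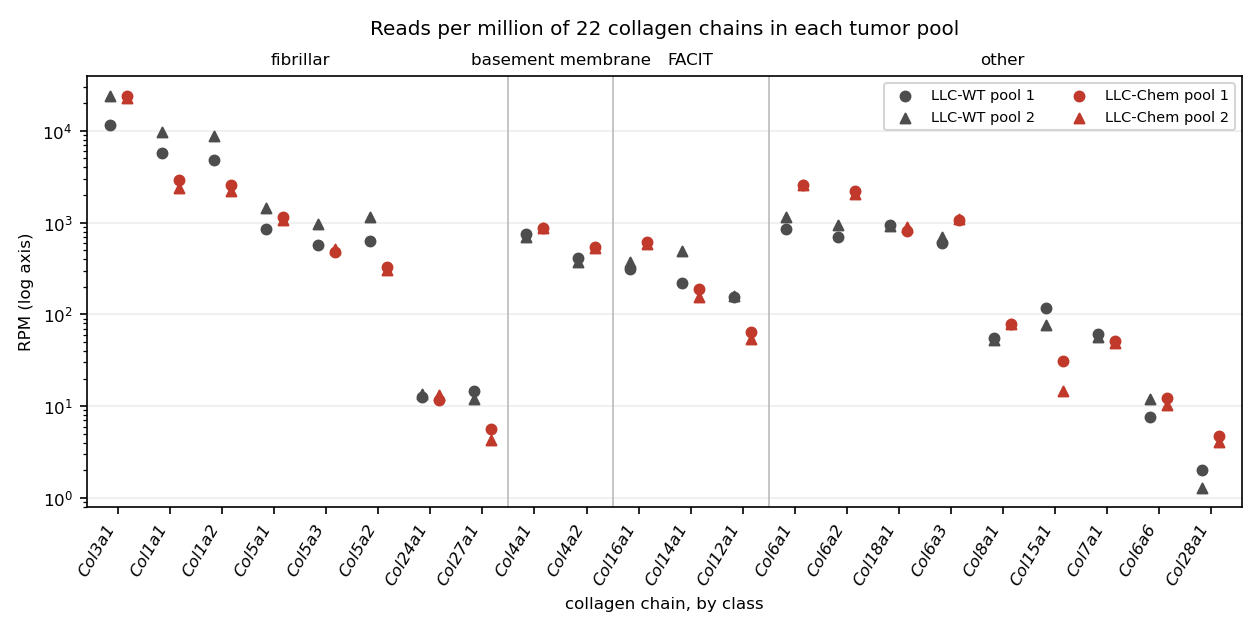
The vertical axis gives RPM on a log scale for the 22 chains that were called or averaged at least 10 RPM, grouped by class along the horizontal axis, with 1 point per pool and no error bars. LLC-Chem pools (red) lie below LLC-WT pools (grey) for the type I chains, with Col1a1 at 2911.6 and 2382.5 against 5768.4 and 9694.3 RPM, and above them for Col6a1, at 2548.8 and 2553.2 against 857.2 and 1142.6 RPM.

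**Figure D2:**
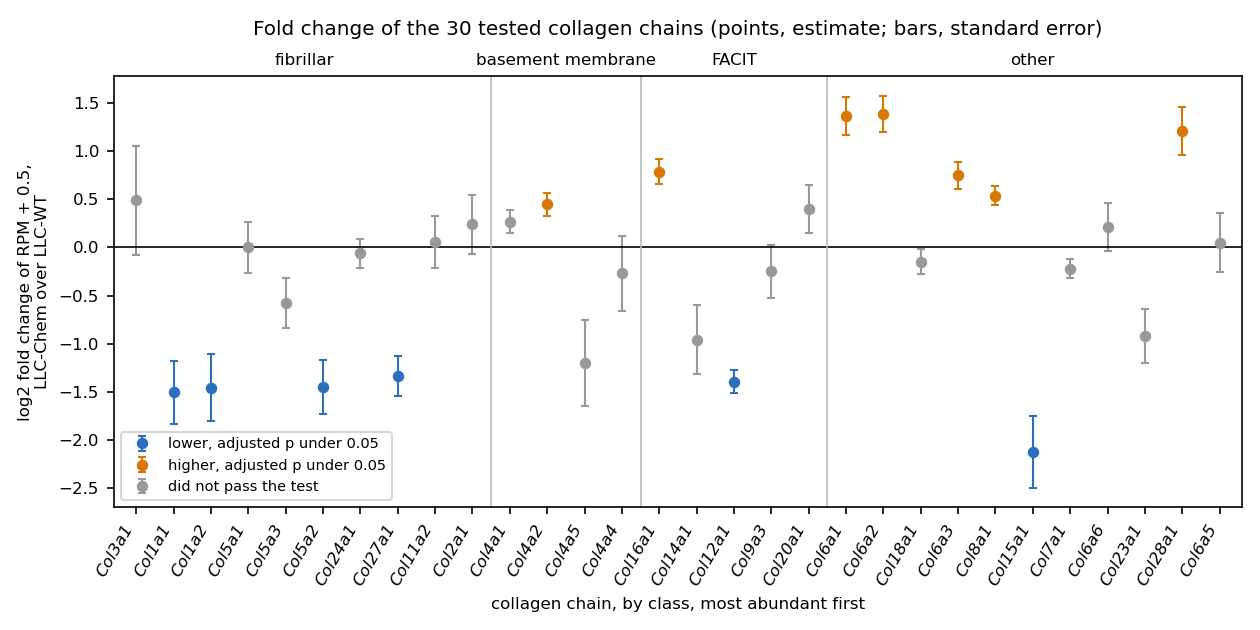
Each point is the log2 fold change of 1 of the 30 tested chains on the log2(RPM + 0.5) scale, LLC-Chem over LLC-WT, with its standard error as a bar, grouped by class and ordered by abundance. The 4 fibrillar chains that fell lie between -1.51 and -1.34, and the fibrillar class holds 0 chains that rose.

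The fibrillar class has 11 chains, of which 10 were tested, 4 fell, 0 rose and 6 did not pass. Its median log2 fold change was -0.32. The type I chains, which together build the main fibrils of skin, tendon and bone, were among the most abundant collagen transcripts. Col1a1 (ENSMUSG00000001506, GRCm38 chr11:94936224-94953042, plus strand) measured 5768.4 and 9694.3 RPM in LLC-WT and 2911.6 and 2382.5 RPM in LLC-Chem. Both LLC-Chem pools were below both LLC-WT pools, although the LLC-WT pools themselves lay 0.75 apart on the log2 scale. LLC-Chem differed from LLC-WT by -1.51 ± 0.33 (SE) on the log2 scale (adjusted p = 0.0334). Col1a2 (GRCm38 chr6:4504814-4541544, plus strand) measured 4836.4 and 8788.0 RPM in LLC-WT and 2578.6 and 2190.8 RPM in LLC-Chem. Its log2 change came to -1.46 ± 0.35 (SE, adjusted p = 0.0383), which is close to that of its partner chain, and its LLC-WT pools lay 0.86 apart in the same direction.

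Type III collagen, a homotrimer of Col3a1 that forms fibrils together with type I in soft tissues, did not pass the test. Col3a1 (GRCm38 chr1:45311538-45349706, plus strand) measured 11581.1 and 23950.0 RPM in LLC-WT and 24121.9 and 22762.3 RPM in LLC-Chem. The groups overlapped, since LLC-WT pool 2 lay between the LLC-Chem pools while LLC-WT pool 1 lay far below the other 3. LLC-Chem differed from LLC-WT by 0.49 ± 0.57 (SE) on the log2 scale (adjusted p = 0.540), with a 95% interval from -0.92 to 1.91. It was -0.03 without LLC-WT pool 1 and 1.02 without LLC-WT pool 2, so that LLC-WT pool 1 decides its sign.

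RefSeq promoter sequences (GRCm38.p6) matched 35 of the 44 chains by symbol. Of the 250 bases before the RefSeq start of Col1a2 and Col3a1, those outside annotated exons are shown. They were chosen because these genes encode partners of the same fibrils and only Col1a2 passed the test. The difference between their changes was not tested. Capitals mark the letters GGGCGG for a GC box, TATAAA for a TATA box, CCAAT for a CCAAT box and ACGTG for the core of a hypoxia response element, read on both strands.
Col1a2, chr6:4505370-4505492, plus strand: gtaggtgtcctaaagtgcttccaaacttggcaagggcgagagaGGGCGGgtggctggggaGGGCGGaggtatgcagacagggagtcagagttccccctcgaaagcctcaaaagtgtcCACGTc
Col3a1, chr1:45311288-45311537, plus strand: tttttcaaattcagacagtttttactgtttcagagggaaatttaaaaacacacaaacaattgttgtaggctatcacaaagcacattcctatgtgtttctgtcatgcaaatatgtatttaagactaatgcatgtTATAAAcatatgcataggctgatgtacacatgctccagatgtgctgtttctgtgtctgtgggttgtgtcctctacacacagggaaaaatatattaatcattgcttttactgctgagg
The Col1a2 stretch, which lies in an intron of longer annotated transcripts of this gene, held 2 GC boxes and 1 ACGTG core (with 2 GC boxes, 2 ACGTG cores and 1 CCAAT box in all 250 bases), and the Col3a1 stretch held 1 TATA box. In the 250 bases before the start, read on both strands with each motif counted whether or not it overlapped another, a GC box was found in 32.7% of 32851 RefSeq promoters, a CCAAT box in 33.8%, an ACGTG core in 16.6% and a TATA box in 12.4%. Among the 35 chains with a promoter in the table, 21 held a GC box, 13 a CCAAT box, 5 an ACGTG core and 5 a TATA box. A match to these letters is a description of the window and not a binding site.

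Type V collagen, which copolymerises with type I and limits the width of its fibrils, has 1 chain that fell and 2 that did not pass, and the difference between them was not tested. Col5a2 (GRCm38 chr1:45374321-45503282, minus strand) measured 637.6 and 1166.3 RPM in LLC-WT and 328.3 and 304.4 RPM in LLC-Chem, with no overlap between groups. Its log2 change came to -1.45 ± 0.28 (SE, adjusted p = 0.0265), close to the values of the type I chains. Col5a1, the partner of Col5a2 in the common form of type V, measured 857.6 and 1460.0 RPM in LLC-WT and 1164.0 and 1076.6 RPM in LLC-Chem. The LLC-Chem pools of Col5a1 lay between the LLC-WT pools, and the log2 change came to 0.00 ± 0.27 (SE, adjusted p = 0.999), with a 95% interval from -0.67 to 0.67. Col5a3 measured 563.8 and 976.3 RPM in LLC-WT and 482.5 and 512.8 RPM in LLC-Chem (log2 change -0.58 ± 0.26 SE, adjusted p = 0.156).

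The other fibrillar chains were of low abundance. Col27a1, a fibrillar chain known mainly from cartilage, measured 14.6 and 12.0 RPM in LLC-WT and 5.60 and 4.30 RPM in LLC-Chem. Its groups did not overlap and it fell by 1.34 on the log2 scale (SE 0.21, adjusted p = 0.0167). Col24a1, its nearest relative in sequence, measured 12.5 and 13.6 RPM in LLC-WT and 11.8 and 13.2 RPM in LLC-Chem, a log2 change of -0.06 ± 0.15 (SE, adjusted p = 0.773). Col2a1, the main collagen of cartilage, and Col11a2 stayed at or under 4.55 RPM in every pool and did not pass the test, and Col11a1 was under 1 RPM in every pool. Of the chondrocyte markers, Sox9, the single one tested, measured 32.1 and 18.0 RPM in LLC-WT and 17.4 and 12.6 RPM in LLC-Chem (adjusted p = 0.151), and its part in the Col27a1 values was not tested. The defining markers of cartilage matrix were near 0, with Acan at no more than 0.150 RPM and Hapln1 under 3 reads in every pool.

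The pools of a group also differed along the fibrillar chains. LLC-WT pool 2 exceeded LLC-WT pool 1 for 7 of the 10 tested fibrillar chains, and for Col1a1, Col1a2, Col3a1, Col5a1, Col5a2 and Col5a3 the log2 difference between these pools ranged from 0.75 to 1.05. The same chains differed by -0.29 to 0.09 between the LLC-Chem pools. The summed fibrillar RPM was 24279.2 and 46065.0 in the LLC-WT pools and 31609.8 and 29253.1 in the LLC-Chem pools, which lie between them. The ratio of the group means was 0.865, or -0.21 on the log2 scale, and it came to 0.33 without LLC-WT pool 2. No test was run on class sums.

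Ratios between chains within a pool were given after their values were seen and have no test, and they compare RPM per kb of the principal transcript. The ratio of Col1a1 to Col1a2 was 1.08 and 0.995 in the LLC-WT pools and 1.02 and 0.981 in the LLC-Chem pools. The partner chains of type I thus kept a ratio between 0.981 and 1.08 in all 4 pools, although their level differed more than 3-fold between pools. The ratio of Col3a1 to Col1a1 was 2.14 and 2.63 in LLC-WT and 8.83 and 10.2 in LLC-Chem, a 3.98-fold difference of the means with no overlap. The ratio of Col5a1 to Col5a2 was 1.06 and 0.987 in LLC-WT and 2.79 and 2.79 in LLC-Chem. Between the LLC-WT pools both of these ratios lay closer together than the levels from which they were made.

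**Figure D3:**
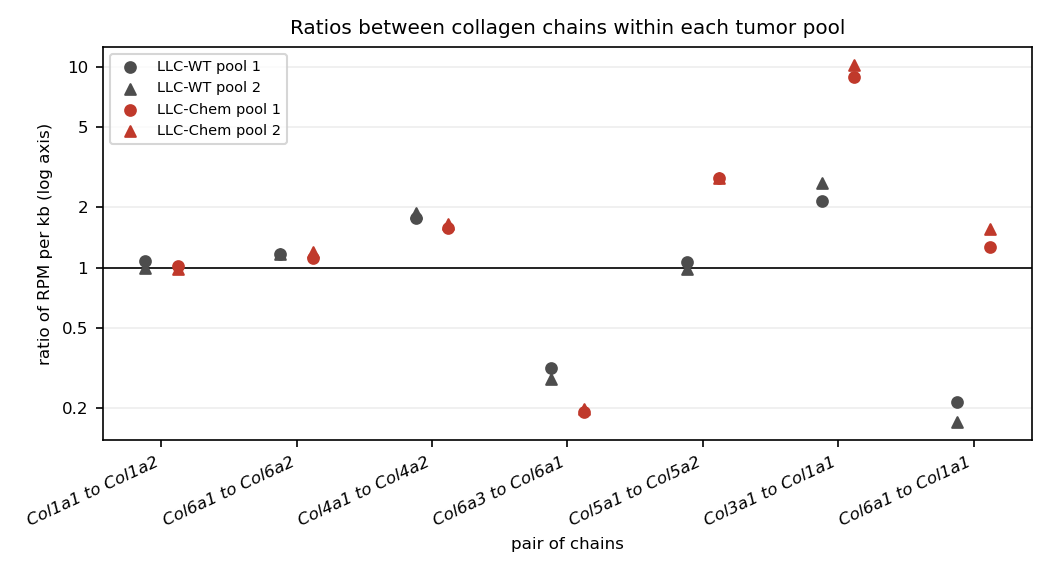
The vertical axis gives the ratio of RPM per kb between the chains of 7 pairs on a log scale, with 1 point per pool and no error bars, and the line marks a ratio of 1. The pools of the groups overlap for Col1a1 to Col1a2 and Col6a1 to Col6a2, and they lie apart for Col3a1 to Col1a1, with 2.14 and 2.63 in LLC-WT against 8.83 and 10.2 in LLC-Chem.

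Type IV collagen is the network-forming collagen of basement membranes. It has 6 chains, of which 4 were tested, 0 fell, 1 rose and 3 did not pass. Col4a1 and Col4a2, which assemble into the form found in nearly all basement membranes, are transcribed away from each other from genes that overlap by 22 bases on chromosome 8. Col4a1 measured 754.6 and 705.3 RPM in LLC-WT and 880.8 and 881.2 RPM in LLC-Chem, with no overlap, and did not pass the test (log2 change 0.27 ± 0.12 SE, adjusted p = 0.156, 95% interval from -0.04 to 0.58). Col4a2 measured 415.0 and 368.5 RPM in LLC-WT and 545.4 and 524.3 RPM in LLC-Chem. It rose by 0.45 on the log2 scale (SE 0.12, adjusted p = 0.0468), which is the called chain nearest to the threshold. DESeq2 on the recovered reads also called Col4a1 higher (adjusted p = 0.0279).

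The basement membrane chains with a narrower tissue range were scarce. Col4a5 measured 4.35 and 11.7 RPM in LLC-WT and 3.25 and 2.50 RPM in LLC-Chem, with no overlap but a wide spread between the LLC-WT pools (log2 change -1.20 ± 0.45 SE, adjusted p = 0.104). DESeq2 called it lower (adjusted p = 0.0250). Its log2 change was -1.86 without LLC-WT pool 1 and -0.53 without LLC-WT pool 2. Col4a4 ranged from 2.00 to 4.75 RPM over the pools, and Col4a3 and Col4a6 stayed at or under 0.450 RPM. The ratio of Col4a1 to Col4a2 per kb was 1.77 and 1.87 in LLC-WT and 1.57 and 1.64 in LLC-Chem. Vessel markers were read in the same pools. All 9 endothelial markers fell, while 13.5% of all tested genes were called lower. They summed to 255.1 and 170.7 RPM in LLC-WT and 58.4 and 31.6 RPM in LLC-Chem. Col4a1 and Col4a2, by contrast, measured higher in both LLC-Chem pools than in both LLC-WT pools. The part of endothelial cells in the type IV values was not tested.

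The multiplexins are collagens of the basement membrane zone, and of the pair 1 fell and 1 did not pass, with no test of the difference between them. Col15a1 (GRCm38 chr4:47208161-47313167, plus strand), found beneath capillary and muscle basement membranes, measured 116.8 and 77.5 RPM in LLC-WT and 30.8 and 14.8 RPM in LLC-Chem. Its groups did not overlap and its log2 change of -2.13 ± 0.37 (SE, adjusted p = 0.0209) was the lowest of the tested chains. Col18a1, from whose end the fragment endostatin is cut, measured 953.3 and 930.1 RPM in LLC-WT and 804.3 and 898.9 RPM in LLC-Chem. Its log2 change came to -0.15 ± 0.13 SE with an adjusted p of 0.439, and the 95% interval ran from -0.48 to 0.19. Ranked by Col15a1, the pools stood in the same order as by the summed endothelial markers and by the summed mural cell markers. The mural cell markers summed to 281.3 and 226.5 RPM in LLC-WT and 94.4 and 65.7 RPM in LLC-Chem. The difference between the groups fixes most of this order. S100a8, a leukocyte marker, gave it too (32.4 and 17.3 against 8.95 and 3.65 RPM). The part of any of these cells in the Col15a1 values was not tested.

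Type VI collagen forms beaded microfilaments close to cells in most connective tissues, from 1 alpha1, 1 alpha2 and 1 longer chain. All 3 of its common chains rose. Col6a1 (GRCm38 chr10:76708792-76726168, minus strand) measured 857.2 and 1142.6 RPM in LLC-WT and 2548.8 and 2553.2 RPM in LLC-Chem, and its log2 change came to 1.37 ± 0.20 (SE, adjusted p = 0.0149). Col6a2 (GRCm38 chr10:76595762-76623630, minus strand) measured 705.3 and 938.5 RPM in LLC-WT and 2214.3 and 2047.1 RPM in LLC-Chem, and its log2 change came to 1.39 ± 0.19 (SE, adjusted p = 0.0143). For both genes every LLC-Chem pool was above every LLC-WT pool, and the LLC-WT pools lay 0.41 apart in the same direction. Col6a3, the long chain, measured 595.6 and 697.2 RPM in LLC-WT and 1061.1 and 1104.2 RPM in LLC-Chem. It rose by 0.75 on the log2 scale (SE 0.14, adjusted p = 0.0248), an estimate below those of the other common chains, and this difference was not tested.

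The ratio of Col6a1 to Col6a2 per kb was 1.17 and 1.17 in LLC-WT and 1.11 and 1.20 in LLC-Chem. The ratio of Col6a3 to Col6a1 was 0.316 and 0.278 in LLC-WT and 0.190 and 0.197 in LLC-Chem, with no overlap. The chains that can take the place of Col6a3 were scarce. Col6a6 measured 7.70 and 12.1 RPM in LLC-WT and 12.3 and 10.2 RPM in LLC-Chem (adjusted p = 0.559), Col6a5 ranged from 1.80 to 3.40 RPM (adjusted p = 0.915), and Col6a4 was not tested. The 6 type VI chains summed to 2168.9 and 2793.7 RPM in LLC-WT and 5840.7 and 5717.4 RPM in LLC-Chem, a 2.33-fold difference of the means.

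The same stretches of Col6a1 and Col6a2 are shown because these neighbouring genes both rose, with capitals as for the fibrillar genes.
Col6a1, chr10:76726169-76726294, minus strand: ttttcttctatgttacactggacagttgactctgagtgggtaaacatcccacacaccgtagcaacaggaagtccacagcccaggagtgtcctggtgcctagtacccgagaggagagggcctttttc
Col6a2, chr10:76623631-76623880, minus strand: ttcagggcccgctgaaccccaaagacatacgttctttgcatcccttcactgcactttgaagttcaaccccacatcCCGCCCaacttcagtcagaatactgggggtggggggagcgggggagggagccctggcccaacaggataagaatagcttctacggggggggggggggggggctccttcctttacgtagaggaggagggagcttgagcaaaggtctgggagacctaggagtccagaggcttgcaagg
The Col6a1 stretch held 0 of the 4 motifs and the Col6a2 stretch held 1 GC box. RefSeq gives Col6a2 a further start downstream, whose 250 bases held 2 GC boxes. Of the 7 chains that rose, all with a promoter in the table, 4 held a GC box, 2 a CCAAT box, 0 a TATA box and 0 an ACGTG core. Of the 6 that fell, 3 had a promoter in the table, of which 2 held a GC box, 1 a CCAAT box, 1 an ACGTG core and 0 a TATA box.

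FACIT collagens decorate the surface of fibrils. The class has 9 chains, of which 5 were tested, 1 fell, 1 rose and 3 did not pass. Col12a1 (GRCm38 chr9:79598991-79718831, minus strand), which lies on type I fibrils of dense and loaded connective tissue, measured 155.0 and 157.5 RPM in LLC-WT and 63.8 and 54.1 RPM in LLC-Chem. Its groups lay far apart beside their small spread, and the log2 change came to -1.40 ± 0.12 (SE, adjusted p = 0.00809), the lowest adjusted p among the chains. Col14a1, a close relative of Col12a1, measured 222.7 and 491.1 RPM in LLC-WT and 187.0 and 154.2 RPM in LLC-Chem. The groups did not overlap, but the LLC-WT pools lay 1.14 apart on the log2 scale and the chain did not pass (log2 change -0.96 ± 0.36 SE, adjusted p = 0.106). Col16a1 (GRCm38 chr4:130047840-130099283, plus strand), found near fibrils and basement membranes of skin, measured 316.5 and 373.7 RPM in LLC-WT and 608.8 and 583.7 RPM in LLC-Chem. It rose by 0.79 on the log2 scale (SE 0.13, adjusted p = 0.0181) with no overlap. Col9a3 and Col20a1 ranged from 1.10 to 2.70 RPM and did not pass.

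Among the remaining chains, Col8a1, a short-chain collagen of vessel walls and of the membrane beneath corneal endothelium, measured 55.1 and 52.8 RPM in LLC-WT and 78.1 and 78.7 RPM in LLC-Chem. It rose by 0.54 on the log2 scale (SE 0.10, adjusted p = 0.0221), while its partner chain Col8a2 was under 1 RPM in every pool. Col28a1, a chain with domains like those of type VI collagen that is known from peripheral nerve, measured 2.00 and 1.30 RPM in LLC-WT and 4.70 and 4.10 RPM in LLC-Chem and rose by 1.21 on the log2 scale (SE 0.25, adjusted p = 0.0296). The summed Schwann cell markers, by comparison, were 95.1 and 61.6 RPM in LLC-WT and 70.4 and 87.1 RPM in LLC-Chem, with 0 of the 3 tested markers called. Col7a1, the collagen of the anchoring fibrils beneath the epidermis, measured 60.8 and 56.3 RPM in LLC-WT and 51.6 and 48.5 RPM in LLC-Chem (log2 change -0.22 ± 0.10 SE, adjusted p = 0.166). Of the keratinocyte markers, Krt5 and Krt14 were under 3 reads in every pool, while Krt10, the single one tested, measured 2.90 and 4.35 RPM in LLC-WT and 2.05 and 2.10 RPM in LLC-Chem (adjusted p = 0.109). Col23a1, a transmembrane collagen, measured 7.25 and 11.3 RPM in LLC-WT and 5.40 and 3.85 RPM in LLC-Chem (adjusted p = 0.0659). DESeq2 called it lower (adjusted p = 0.0334).

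The 14 chains that were not tested all stayed at or under 1.15 RPM. They are Col11a1 of the fibrillar class, Col4a3 and Col4a6 of type IV, Col9a1, Col9a2, Col19a1 and Col22a1 of the FACIT class, and Col6a4, Col8a2, Col10a1, Col13a1, Col17a1, Col25a1 and Col26a1. Of these, 6 were above 3 reads in all 4 pools and 6 in at most 2 pools. Col10a1, the collagen of hypertrophic cartilage, was at no more than 0.0999 RPM in any pool, and Col13a1, a transmembrane collagen, reached 1.15 RPM in LLC-WT pool 2.

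By level per length, the order of the chains differed between the groups. In LLC-WT tumors the highest were Col3a1 at 3192.9, Col1a1 at 1303.8 and Col1a2 at 1273.8 RPM per kb (means of 2 pools), followed by Col6a1 at 243.9 and Col6a2 at 208.1. In LLC-Chem tumors Col3a1 led at 4213.2 RPM per kb, and Col6a1 at 622.2 and Col6a2 at 539.6 stood above Col1a1 at 446.4 and Col1a2 at 445.9. Col6a1 was at 0.215 and 0.170 of the Col1a1 level per kb in the LLC-WT pools and at 1.27 and 1.55 of it in the LLC-Chem pools. In each group the type I chains did not differ from each other beyond the spread of their pools.

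As a share of the summed collagen RPM per kb, type III made up 39.7% and 46.5% in the LLC-WT pools and 58.2% and 58.4% in the LLC-Chem pools. Type I made up 35.8% and 35.4% in LLC-WT and 13.1% and 11.6% in LLC-Chem. Type VI made up 8.68% and 6.43% in LLC-WT and 17.5% and 18.1% in LLC-Chem. These 3 shares did not overlap between the groups. Type V made up 5.54% and 5.50% in LLC-WT and 3.58% and 3.68% in LLC-Chem, and type IV between 1.79% and 3.42% with overlapping groups. The FACIT chains made up 1.87% to 2.19% in every pool. The shares sum to a fixed total, so that a change of any type moves the others, and they have no test.

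**Figure D4:**
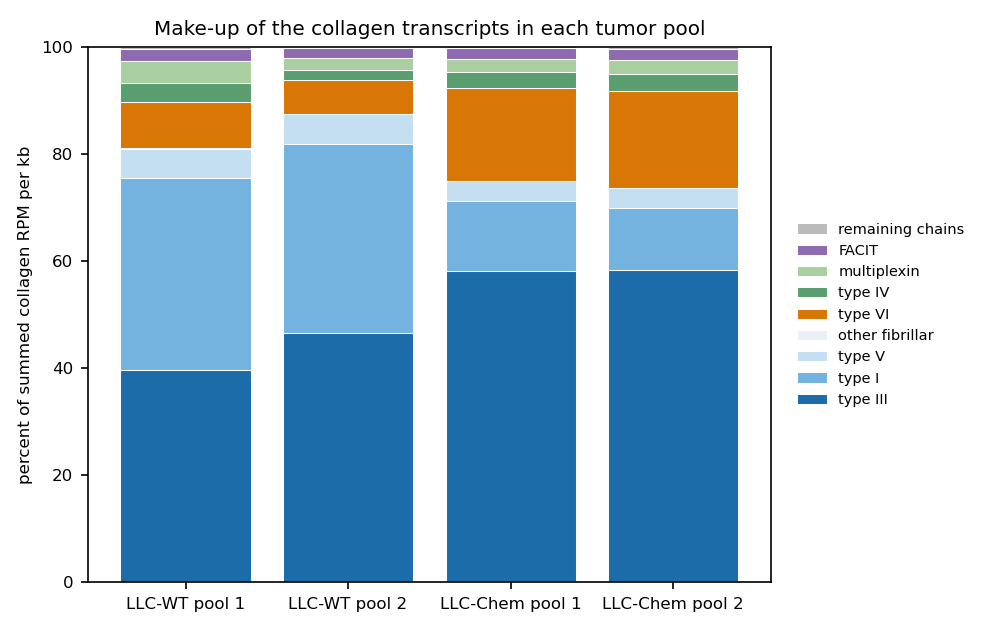
Each bar is 1 pool, and its segments are the percent of the summed RPM per kb of all 44 chains that each collagen type takes. Type I (light blue) fills 35.8% and 35.4% of the LLC-WT bars and 13.1% and 11.6% of the LLC-Chem bars, while type VI (orange) fills 8.68% and 6.43% against 17.5% and 18.1%.

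Summed RPM were also compared by class. Type IV summed to 1176.4 and 1090.5 RPM in LLC-WT and 1432.7 and 1410.9 RPM in LLC-Chem (1.25 times the LLC-WT mean), and the FACIT chains to 698.5 and 1026.4 against 863.2 and 797.0 RPM (0.963 times). The chains outside these 3 classes summed to 3366.6 and 3925.6 RPM in LLC-WT and 6817.1 and 6767.6 RPM in LLC-Chem (1.86 times), of which type VI made up the larger part. All 44 chains together summed to 29520.7 and 52107.5 RPM in LLC-WT and 40722.8 and 38228.6 RPM in LLC-Chem, so that the LLC-Chem pools lie between the LLC-WT pools. The ratio of the group means was 0.967.

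Features of the proteins and of the genome were set beside the calls. The longest run of Gly-X-Y triplets in the translated principal transcript was 216 to 344 triplets in the 11 fibrillar chains and 23 to 113 in the other 33, so that a run over 200 triplets marks the fibrillar class exactly. Of the 10 tested chains with such a run 4 fell and 0 rose, and of the 20 with a shorter run 2 fell and 7 rose. Within the fibrillar class the runs of chains that fell (Col1a1 338, Col1a2 339, Col5a2 339 and Col27a1 217 triplets) were as long as those of chains that did not pass (Col3a1 344, Col5a1 338 and Col24a1 216). Col6a1 and Col6a2 each had a longest run of 87 triplets, and Col12a1, whose protein has 3065 residues, one of 32.

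Several chains lie next to each other in the genome. Col6a2 and Col6a1 lie 85161 bases apart on chromosome 10 on the same strand, and both rose. Col3a1 and Col5a2 lie on opposite strands with their 3′ ends 24614 bases apart on chromosome 1, and only Col5a2 passed the test. The difference between neighbours was not tested. Col6a5 and Col6a6 lie 27917 bases apart on chromosome 9 on the same strand, and neither passed the test. Of Col4a3 and Col4a4, 71 bases apart, and of Col4a5 and Col4a6, 1308 bases apart, Col4a3 and Col4a6 were too low to be tested. Whether strand was used in counting is not given in the sources used here, but overlap with other genes was small for the 22 chains given in full, at most 2.50% of exon bases (Col5a1). Among the chains of low abundance it reached 6.07% (Col9a3).

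The genes that fold, trim, cross-link or bind collagens were taken as 3 lists. Of 16 tested genes for folding and modification 5 rose and 0 fell, beside 9.54% higher and 13.5% lower of all tested genes. The median log2 fold change of the 16 genes was 0.13. Those that rose include the lysyl hydroxylases Plod1 (200.4 and 254.1 RPM in LLC-WT, 557.5 and 530.9 RPM in LLC-Chem) and Plod2 (213.9 and 202.7 against 404.2 and 406.6 RPM). The prolyl 4-hydroxylase subunit P4ha1 also rose, from 243.5 and 263.5 to 423.3 and 402.3 RPM, as did P3h2 and Crtap, of the prolyl 3-hydroxylation machinery. The collagen chaperone Serpinh1 measured 1050.7 and 1199.5 RPM in LLC-WT and 921.2 and 882.9 RPM in LLC-Chem and did not pass. P4hb, the shared beta subunit of prolyl 4-hydroxylase, measured 1194.0 and 1372.3 RPM in LLC-WT and 1587.9 and 1416.6 RPM in LLC-Chem (adjusted p = 0.331).

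Of 11 tested genes for procollagen trimming and cross-linking 6 fell and 2 rose, beside 13.5% lower and 9.54% higher of all tested genes. The median log2 fold change of the 11 genes was -0.79. Lox, which starts the cross-linking of fibrils by oxidising lysines, measured 240.6 and 314.6 RPM in LLC-WT and 83.7 and 80.4 RPM in LLC-Chem (log2 change -1.74 ± 0.15 SE, adjusted p = 0.00882). Its relatives Loxl1, Loxl2 and Loxl3 fell as well, by 1.45, 1.72 and 0.48 on the log2 scale, while Loxl4 rose by 0.52. Adamts2, which removes the N-terminal propeptide of fibrillar procollagens, fell by 1.16, and Adamts14, an enzyme of the same kind, rose by 0.56. Pcolce2, an enhancer of C-propeptide removal, fell by 1.25. Bmp1, the main C-propeptide protease, measured 454.6 and 703.6 RPM in LLC-WT and 444.3 and 479.0 RPM in LLC-Chem and did not pass. Its enhancer Pcolce measured 439.7 and 519.4 RPM in LLC-WT and 462.4 and 479.3 RPM in LLC-Chem (adjusted p = 0.911).

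Of 9 tested receptors 3 fell and 2 rose, beside 13.5% lower and 9.54% higher of all tested genes. The median log2 fold change of the 9 genes was 0.07. Ddr1, a receptor tyrosine kinase that binds collagens, rose from 48.1 and 45.4 to 93.9 and 87.7 RPM, and Itga10, a collagen-binding integrin chain, rose from 6.50 and 9.59 to 15.3 and 15.5 RPM. The integrin chains Itga1 and Itga2 fell, by 1.01 and 1.40 on the log2 scale, as did the inhibitory leukocyte receptor Lair1, by 1.57. Ddr2, which prefers fibrillar collagens, measured 288.7 and 327.5 RPM in LLC-WT and 354.1 and 433.4 RPM in LLC-Chem and did not pass. Itgb1, the beta chain of the collagen-binding integrins, measured 863.7 and 856.5 RPM in LLC-WT and 961.4 and 1006.5 RPM in LLC-Chem (adjusted p = 0.293). The uptake receptor Mrc2 measured 136.4 and 195.5 RPM in LLC-WT and 174.2 and 168.5 RPM in LLC-Chem (adjusted p = 0.792).

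**Figure D5:**
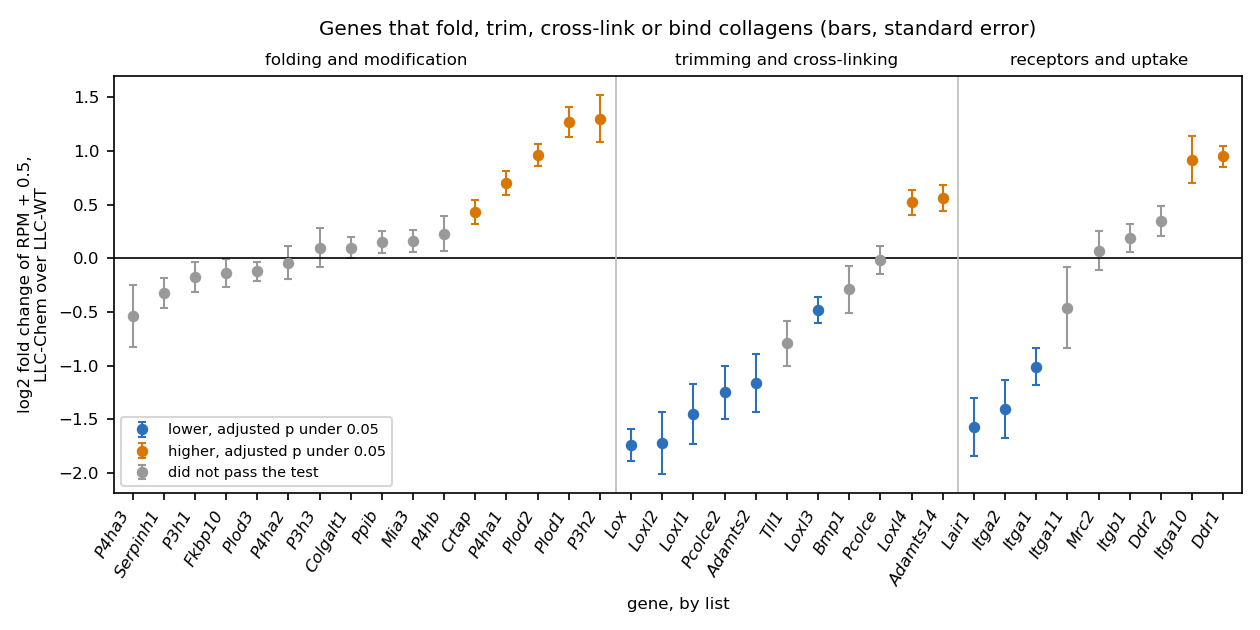
Each point is the log2 fold change of 1 gene on the log2(RPM + 0.5) scale, LLC-Chem over LLC-WT, with its standard error as a bar, in the lists of folding and modification, trimming and cross-linking, and receptors. Lox has the lowest value of the cross-linking genes at -1.74, and Plod1 at 1.27 and P3h2 at 1.30 the highest of the folding genes.

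Markers of the cell types that could carry collagen transcripts were read in the same pools. Of all tested genes, 13.5% were called lower and 9.54% higher. The 10 fibroblast markers summed to 2790.6 and 4376.3 RPM in LLC-WT and 4985.8 and 3859.5 RPM in LLC-Chem, and these sums overlap. Of them 3 fell (Pi16, Fbln1 and Pdpn), 1 rose (Pdgfra) and 6 did not pass, and edgeR on the recovered reads did not call Pi16 (adjusted p = 0.0634) or Pdgfra (adjusted p = 0.0545). DESeq2 called these 4 and also Dcn (adjusted p = 0.00683), Lum (adjusted p = 0.00822) and Dpt (adjusted p = 0.00633) higher and Thy1 (adjusted p = 0.00365) lower. Among those that did not pass by limma, and picked after their values were seen, Dcn was at 849.9 and 1286.3 RPM in LLC-WT and 2085.0 and 1583.4 RPM in LLC-Chem, and Mfap5 at 159.0 and 359.9 against 98.0 and 95.7 RPM. The 10 mural cell markers, of smooth muscle and pericytes, held 7 that fell and 0 that rose (edgeR did not call Cspg4, adjusted p = 0.0507, and DESeq2 did, adjusted p = 0.0115). Leukocyte markers summed to 1036.2 and 1397.3 RPM in LLC-WT and 722.6 and 389.5 RPM in LLC-Chem, and 5 of the 7 tested fell (Csf1r was called by neither edgeR, adjusted p = 0.0648, nor DESeq2, adjusted p = 0.0773). DESeq2 also called Adgre1 and Cd68 lower (adjusted p = 0.0230 and 0.0470). In LLC-WT, pool 2 was the higher for the fibroblast, leukocyte and fibrillar collagen sums and the lower for the endothelial and mural cell sums. Between the groups the ratio of LLC-Chem to LLC-WT was 1.23 for the fibroblast sum, 0.457 for the leukocyte sum and 0.865 for the fibrillar sum. Markers of bone and of skeletal muscle were low, with sums of at most 0.650 and 5.35 RPM in any pool, and the single tested muscle marker, Tnnt3, rose from 1.05 and 1.75 to 3.15 and 4.60 RPM (adjusted p = 0.0419). Adipocyte markers summed to 28.1 and 20.1 RPM in LLC-WT and 39.9 and 14.3 RPM in LLC-Chem, and 1 of the 3 tested, Cfd, rose from 1.40 and 1.40 to 15.1 and 4.10 RPM (adjusted p = 0.0466). The part of any of these cell types in the collagen values was not tested.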

How the data were processed

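RNA-seq of 4 pools of LLC tumors was analysed. The authors aligned the paired reads to GRCm38.p4 (mm10) by STAR, obtained gene counts on the Ensembl annotation by HTSeq, and deposited these as RPM. The versions of these tools are not given in the sources used here. In every pool all values came within 0.1 step of a whole multiple of 1 step, which points to reads rescaled to 20000000 per library and rounded up, and library totals were fitted on that basis. Groups and replicate numbers come from the labels.

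The main test was limma 3.58.1 (R 4.3.3) with a trended eBayes step, on log2(RPM + 0.5), which understates changes of low genes, in the 13694 genes averaging 1 RPM or more. RPM are not counts, so edgeR 4.0.16 (quasi-likelihood) and DESeq2 1.42.0 ran on the recovered reads as alternatives. Limma was tested on simulated data of this comparison (13566 genes). It called 65.4% of genes changed by 1 on the log2 scale and 95.4% of those changed by 2. Of its calls, 6.7% were unchanged genes. The simulation changed 107 genes by 1 and 87 by 2 and drew each gene independently. The real fit called 1848 genes lower and 1306 higher, so these shares need not hold for the calls given here. With 2 pools against 2, an exact permutation test of 1 value cannot go below p = 0.33. P-values measure the spread between pools of 3 tumors each. Other alternatives were pseudocounts of 0.1 and 1, TMM and median-of-ratios scaling, other filters, eBayes without trend, the replicate number as a block, its crossed form (chosen after seeing the data) and leaving out each pool.

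Levels were compared between genes per kb of the principal (APPRIS) transcript of GENCODE M21 on GRCm38. Runs of Gly-X-Y triplets were read from its translation. Full values are given for chains called by limma or with a mean of at least 10 RPM, and the other chains by range or count, with Col23a1, Col4a5 and the untested chains named after their values were seen. Genes of the folding, trimming and receptor lists are named if called or among the 4 most abundant. Marker lists are given by sums and counts, with single markers picked after their values were seen. The collagen chains, classes and lists were chosen with earlier results of these data known. Summaries and figures were made with Python 3.11.15, pandas 2.3.3 and matplotlib 3.10.9.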

Additional observations from a re-analysis of the deposited data

How the results depend on the processing

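The numbers of chains that fell and rose were 6 and 7 with either other pseudocount, TMM or median-of-ratios scaling and edgeR, and DESeq2 called 8 and 8, with Col4a5, Col23a1 and Col4a1 added. Without the trend 6 chains fell and 6 rose (Col4a2 was lost), and with a mean of at least 5 RPM also 6 and 6 (Col28a1 was not tested). With no filter on low values 0 chains and, of all genes, 0 lower and 1 higher were called by limma (13 and 8 chains, and 4003 and 3394 of 26260 genes, at an unadjusted p under 0.05). Leaving out any pool left 1 residual degree of freedom and gave 0 calls, in each direction, for chains and for all genes. Over all genes, 1848 lower and 1306 higher became 1647 and 1583 under TMM scaling, 1271 and 891 without the trend, 1615 and 1556 with edgeR and 2272 and 1872 with DESeq2.

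The replicate numbers are shared by the groups, and the deviations of same-numbered pools had a correlation of -0.1405 over 13694 genes. Each group gives a single contrast between pools, and genes of a pool are not independent. This value therefore cannot decide whether same-numbered pools were handled together, and the labels do not say. With the replicate block limma called 4 chains lower and 4 higher (1064 and 549 genes) and no longer called Col1a1, Col1a2, Col4a2, Col6a3 and Col8a1 (adjusted p from 0.0555 to 0.105), and edgeR with the replicate block 3 and 3 (740 and 510 genes). The block also ended the calls of Crtap, Adamts2, Adamts14, Loxl1, Loxl3, Loxl4 and Itga10 and of the markers Pdgfra, Pi16, Fbln1, Tagln, Csf1r and Cfd (adjusted p from 0.0501 to 0.102). With the pairing crossed, 9 chains were lower and 7 higher (2320 and 1579 genes).

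The log2 ratio of the summed RPM of a class (LLC-Chem over LLC-WT) was -0.21 for fibrillar, -0.06 for FACIT, 0.33 for basement membrane, 0.90 for the other chains and -0.05 for all chains. With a pool left out it ranged from -0.60 to 0.33 for fibrillar, -0.31 to 0.25 for FACIT, 0.27 to 0.38 for basement membrane, 0.79 to 1.01 for the other chains and -0.40 to 0.42 for all chains. Without LLC-WT pool 2 the fibrillar, FACIT and all-chain sums turned positive, and without LLC-Chem pool 2 the FACIT ratio was 0.00. With the multiplexins counted as basement membrane, the other chains came to 1.18 and basement membrane to 0.08.

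Among the 22 named chains under 16 alternatives, the log2 fold change kept its direction and its side of the threshold in 264 cases, lost its call in 78 (for the most part with no filter or with a pool left out, where limma called no chain), gained one in 2 and changed sign in 7. The sign changes were all in chains that did not pass the test. They were Col24a1 (0.01 without LLC-Chem pool 1, range over the left-out pools -0.14 to 0.01), Col3a1 (-0.03 without LLC-WT pool 1, range to 1.02), Col6a6 (-0.10 without LLC-WT pool 1, range to 0.52) and Col5a1 (-0.01 with edgeR, -0.02 with DESeq2, -0.38 without LLC-WT pool 1 and -0.06 without LLC-Chem pool 1, range to 0.38). The cause of these changes was not tested. The 14 chains that were not tested had a mean under 1 RPM. Of these, 6 exceeded 3 reads in at most 2 pools and 6 did so in all 4 pools.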
